A study of Mus musculus with 8 samples.

Results

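The genes described here are the nuclear genes for the subunits of the 5 enzyme complexes of oxidative phosphorylation. They were taken from the deposited table by symbol: the protein-coding genes whose names follow the series for NADH dehydrogenase (Nduf), succinate dehydrogenase (Sdh), the cytochrome bc1 complex (Uqcr and Cyc1), cytochrome c oxidase (Cox4 to Cox8) and ATP synthase (Atp5). The table lists 25477 genes. Such a name was borne by 88 of them, and 85 reached the required 80 counts summed over all libraries. Complex I has 40 of them, complex II 4, complex III 9, complex IV 15 and complex V 17. Ndufab1 did not match the name pattern, which needs a digit directly after the letter that follows Nduf. It is counted below with the electron carriers. Just inside the limit lay Ndufb4b with 245 counts, Cox8b with 293 and Ndufa4l2 with 350, and just outside it Ndufb4c with 71, Cox6a2 with 29 and Cox7b2 with 2. All 85 passed the filter on low counts and were tested.

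Polyadenylated RNA of mouse retina was sequenced in 8 libraries, 4 with the genotype given as PD-L1 knockout and 4 given as control. In their titles the knockout libraries carry KO and the control libraries WT, read here as wild type. The titles of both groups carry CNV, choroidal neovascularization, the growth of new vessels from the choroid under the retina, so there is no group without that word. The study asked how PD-L1, an immune checkpoint ligand, acts on the formation of these vessels. The knockout allele and whether it covers every cell, the strain, age and sex of the animals, how and when CNV was induced, and whether each library is a separate animal are details that the sources used here do not give. The p-values therefore measure the spread between libraries only, and that spread may be technical. Each library goes by its group and the number of its title, as in knockout 1 or control 4.

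The libraries held 31743404 to 36438248 counts, of which the subunit genes took 0.700% to 0.971%. Cd274, the gene of PD-L1, lay at 0.339, 0.434, 0.252 and 0.314 CPM (counts scaled to library size) in knockout 1 to 4 and at 4.64, 3.67, 4.71 and 4.88 CPM in control 1 to 4, which matches the labels. All 8 markers of rods were measured, with summed levels of 36954 to 54027 CPM in knockout and 37424 to 48925 CPM in control libraries. The following features of the libraries touch the results below. Control 4 stood apart: on the first principal component, with 31.6% of the variance, the knockout libraries lay between -28.1 and -20.3, control 1 to 3 at 17.7, 45.1 and 39.8, and control 4 at -6.95. Lens markers summed to 2324 CPM in knockout 3, 5000 in control 2 and 1587 in control 3. They summed to at most 39.6 CPM in the other 5 libraries, and the source of these transcripts was not tested.

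Oxidative phosphorylation takes electrons from NADH at complex I and from succinate at complex II, passes them by ubiquinone to complex III and by cytochrome c to complex IV, where oxygen is reduced. Complexes I, III and IV pump protons across the inner mitochondrial membrane, and complex V lets them flow back to make ATP. Complexes I, III, IV and V are built from subunits of both genomes, with a few central ones encoded in mitochondrial DNA and the rest, described here, in the nucleus, while complex II is wholly nuclear. Photoreceptors pack mitochondria into their inner segments and are among the heaviest users of oxygen in the body. Nuclear respiratory factor 1 (NRF1), GABPA (an ETS factor), YY1 and SP1 are textbook regulators of subunit promoters.

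Promoter sequences bear on how such genes can share regulation, and 4 are shown because they belong to members that the values below turn on: Ndufv3, the member that passed the test, Ndufb4, with the lowest log2 fold change in complex I, and Sdha and Atp5b, catalytic subunits of complexes II and V. Each run holds the 250 bases before the annotated start, 5′ to 3′ on the gene's strand, from RefSeq for GRCm38.p6. Capitals mark the letters of the 4 motifs searched. The positions are chr17:31519865-31520114 on the plus strand for Ndufv3, chr16:37654369-37654618 on the minus strand for Ndufb4, chr13:74350241-74350490 on the minus strand for Sdha and chr10:128083057-128083306 on the plus strand for Atp5b.
Ndufv3: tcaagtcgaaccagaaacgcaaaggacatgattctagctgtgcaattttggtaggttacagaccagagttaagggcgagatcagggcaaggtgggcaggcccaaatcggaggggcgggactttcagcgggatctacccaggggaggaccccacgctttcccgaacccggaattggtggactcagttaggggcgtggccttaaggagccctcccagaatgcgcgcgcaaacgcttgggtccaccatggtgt
Ndufb4: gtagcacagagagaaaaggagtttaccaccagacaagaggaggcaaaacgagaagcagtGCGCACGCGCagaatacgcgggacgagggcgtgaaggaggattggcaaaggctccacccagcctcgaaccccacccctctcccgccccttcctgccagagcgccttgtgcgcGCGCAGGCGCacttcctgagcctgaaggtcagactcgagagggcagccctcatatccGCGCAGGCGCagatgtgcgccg
Sdha: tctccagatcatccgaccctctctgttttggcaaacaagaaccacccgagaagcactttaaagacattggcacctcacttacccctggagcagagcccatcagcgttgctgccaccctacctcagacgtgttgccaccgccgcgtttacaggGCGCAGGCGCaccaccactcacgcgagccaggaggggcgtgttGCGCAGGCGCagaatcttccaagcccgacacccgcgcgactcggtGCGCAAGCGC
Atp5b: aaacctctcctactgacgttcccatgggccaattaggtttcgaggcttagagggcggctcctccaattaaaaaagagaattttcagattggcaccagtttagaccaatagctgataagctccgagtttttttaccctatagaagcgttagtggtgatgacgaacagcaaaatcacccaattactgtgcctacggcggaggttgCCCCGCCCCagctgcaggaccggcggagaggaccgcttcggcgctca
Ndufb4 and Sdha each hold the NRF1 letters 3 times, Atp5b holds the SP1 letters 1 time on the opposite strand, and Ndufv3 holds none of the 4. Over the 69 members with a promoter in the table, in a window of 300 bases (250 before and 50 after the start, both strands), the NRF1 core stood in 17, or 24.6%, against 5.19% of 27025 genes and 9.83% of the 13146 tested genes with a promoter. The YY1 letters AAGATGGC stood in 10, or 14.5%, against 3.19% of all promoters and 4.51% of those of tested genes. The ETS letters CCGGAAGT stood in 5 members, or 7.25% (4.31% and 7.64%), and the SP1 letters GGGGCGGGG in 11, or 15.9% (12.9% and 22.6%). The NRF1 word reads nearly the same on both strands and may overlap itself, and overlaps between motifs were not removed. The median log2 fold change was 0.08 over the 17 members holding the NRF1 letters and 0.01 over the 52 without them. A match is a description of letters in this window.

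The subunit genes are strongly expressed in these retinas. Levels between genes are compared as FPKM, fragment counts divided by gene length and library total. The median member lay at 86.8 FPKM, 78 of 85 were above 20 FPKM and 6 were below 10. Median levels by complex were 67.5 FPKM for complex I, 61.4 for II, 81.4 for III, 127 for IV and 123 for V. The highest was Ndufa4, at 511 ± 88.1 FPKM in knockout and 705 ± 281 in control libraries (SD, n = 4 in each group here and below). By its name it is a complex I gene, although its protein is now placed in complex IV. It was followed by Atp5b, the catalytic beta subunit of ATP synthase, at 511 ± 43.1 and 406 ± 40.1 FPKM, and by Cox6c, a small subunit of cytochrome c oxidase, at 350 ± 51.6 and 485 ± 197 FPKM. In the control libraries these 3 levels overlapped within their spread, while in the knockout Cox6c lay below the other two by more than the SDs. In complex III the highest was Uqcrh, the hinge protein beside cytochrome c1, at 253 ± 31.8 and 272 ± 74.5 FPKM, and in complex II Sdha at 121 ± 4.30 and 105 ± 11.2 FPKM. The lowest members were isoforms and gene copies: Ndufa4l2 at a mean of 1.11 FPKM over all libraries, Ndufb4b at 1.93, Cox8b at 3.00, Ndufs6b at 3.52, Cox7a1 at 3.65 and Cox6b2 at 8.10.

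With knockout and control libraries compared, Ndufv3 alone of the 85 subunit genes passed the test, and no member passed in the lower direction. Ndufv3, an accessory subunit attached to the NADH-oxidizing tip of complex I, was higher in the knockout with a log2 fold change of 0.45 and a standard error of 0.09. Its adjusted p was 0.0305 in edgeR's quasi-likelihood test with Benjamini-Hochberg adjustment over 16861 genes. Over all genes tested, 2.55% passed, 1.2% higher and 1.35% lower, so 1 of 85 is near the background. In whole retina, fewer cells of a type and less RNA per cell cannot be told apart. At an unadjusted p under 0.05, 11 members were higher and 2 lower, against 10.5% and 10.8% of all genes tested. DESeq2 gave 2 members higher (Ndufv3 and Uqcrc1) and 0 lower, where 8.47% of all genes passed, 3.82% higher and 4.64% lower. Limma-voom with sample quality weights gave 6 higher and 3 lower, where 16.2% of all genes passed, 8.64% higher and 7.56% lower. Of the log2 fold changes 48 were positive and 37 negative, with a median of 0.02 beside -0.00 over all genes tested, of which 50.2% were negative. The values in the 4 libraries of each group did not overlap for 4 members, Ndufv3, Ndufa11, Uqcrc1 and Uqcrc2, all of them higher in the knockout. Among all genes tested 11% did not overlap, 5.19% with the knockout higher and 5.78% with it lower.

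**Figure D1:**
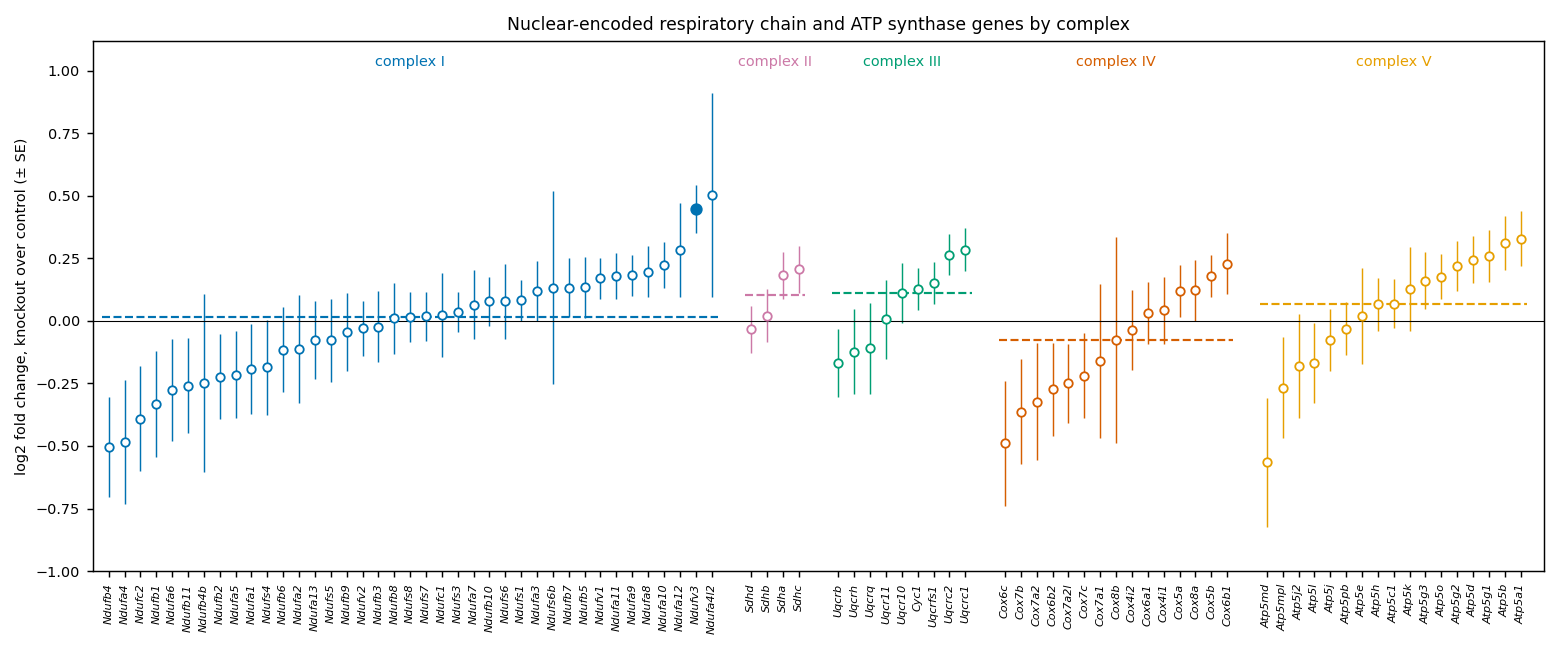
Log2 fold change of each subunit gene, knockout over control, with its standard error, ordered within complexes I to V. The filled point is Ndufv3 (0.45), which passed the test, open points did not pass, 1 gene of complex I is not drawn, and dashed lines mark the median over all genes of each complex, from -0.08 for complex IV to 0.11 for complex III.

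Complex I receives the electrons of NADH through a matrix arm and pumps protons through a membrane arm. Ndufv3 lies on chromosome 17 at 31520115 to 31531326 in GRCm38.p6. Its level was 81.3, 95.8, 92.6 and 92.8 CPM in knockout 1 to 4 and 68.8, 65.7, 57.2 and 74.2 CPM in control 1 to 4, or 90.6 ± 6.41 against 66.5 ± 7.12 CPM. Every knockout library was above every control library, and control 4 was the closest of the controls to the knockout. The call was lost without knockout 2, 3 or 4 or without control 1, 2 or 3, where the log2 fold change was 0.38 to 0.46 and the adjusted p 0.0771 to 0.114. It was lost as well without the 3 libraries rich in lens markers, where 3 knockout and 2 control libraries remained and the log2 fold change was 0.34 (SE 0.12, adjusted p = 0.563). Its neighbours in the NADH-binding module did not pass: the log2 fold change was 0.17 (SE 0.08) for Ndufv1, the subunit that binds NADH and flavin, and -0.03 (SE 0.11) for Ndufv2, an iron-sulfur subunit.

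The 16 matrix arm genes, with Ndufv3 among them, had a median log2 fold change of 0.05 and 11 were positive, while the 20 membrane arm genes had a median of -0.03 and 9 were positive. With the trend over gene length removed, the order turned, with 0.07 for the matrix arm and 0.09 for the membrane arm. Among core subunits of the matrix arm, log2 fold changes were 0.08 for Ndufs1, 0.04 for Ndufs3, 0.02 for Ndufs7 and 0.02 for Ndufs8 (SE 0.08 to 0.10). Those of Ndufv1 and Ndufv2, also core subunits, were 0.17 (SE 0.08) and -0.03 (SE 0.11), and none of these genes passed. Ndufa4l2 had the highest log2 fold change of the 85 genes, 0.50, but with an SE of 0.41 at about 1 CPM. Ndufb4 and Ndufc2, small accessory subunits of the membrane arm, lay at the lower end. Ndufb4 measured 36.1, 47.5, 46.7 and 48.3 CPM in knockout 1 to 4 and 65.1, 85.0, 67.6 and 35.8 CPM in control 1 to 4. Control 1 to 3 were above every knockout library and control 4 was below them all, and the log2 fold change was -0.51 (SE 0.20, adjusted p = 0.173). Ndufc2 measured 52.0, 67.9, 69.1 and 84.0 CPM in knockout 1 to 4 and 83.5, 116, 107 and 51.3 CPM in the control libraries, with a log2 fold change of -0.39 (SE 0.21). Here knockout 4 overlapped control 1 as well. In the other direction Ndufa10, an accessory subunit of the membrane arm, measured 98.1, 116, 118 and 104 CPM against 93.8, 89.4, 85.6 and 104 CPM, a log2 fold change of 0.22 with an SE of 0.09 (adjusted p = 0.186), with control 4 inside the knockout range. Ndufa11, which sits in the membrane arm, did not overlap between groups, by a margin of 36.8 CPM in the lowest knockout to 36.7 CPM in the highest control library (log2 fold change 0.18, SE 0.09).

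Complex II links the citric acid cycle to the respiratory chain. Sdha, its flavin-bearing catalytic subunit, measured 332, 353, 362 and 325 CPM in the knockout group, and 295, 291, 275 and 348 CPM in the controls. Only control 4 reached the knockout range, and the log2 fold change of 0.18 did not pass (SE 0.09, adjusted p = 0.284). Sdhc, a membrane anchor, gave 0.21 (SE 0.09, adjusted p = 0.230), Sdhb, the iron-sulfur subunit, 0.02 (SE 0.10), and Sdhd, the other anchor, -0.03 (SE 0.10). The FPKM summed over the 4 genes was 281, 298, 301 and 292 in the knockout group, and 260, 279, 257 and 267 in the controls, which do not overlap, while their summed CPM, scaled by TMM, did overlap, with 521 to 583 against 474 to 529.

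Complex III carries electrons from ubiquinol to cytochrome c. All 4 core and catalytic genes had positive log2 fold changes, with a median of 0.21, and none of them passed. Uqcrc1, a core protein on the matrix side, measured 150, 161, 181 and 156 CPM in knockout 1 to 4 and 127, 134, 126 and 144 CPM in control 1 to 4. Its log2 fold change was 0.29 (SE 0.09, adjusted p = 0.0926). Uqcrc2, its partner core protein, measured 123, 134, 144 and 139 CPM against 110, 118, 105 and 117 CPM, with a log2 fold change of 0.26 with an SE of 0.08 (adjusted p = 0.0959). For both genes each knockout library was above each control library. Uqcrfs1, the Rieske iron-sulfur protein, gave 0.15 (SE 0.08) and Cyc1, cytochrome c1, 0.13 (SE 0.08). The 5 small subunits had a median of -0.11, from -0.17 for Uqcrb to 0.11 for Uqcr10. With the length trend removed their median was 0.06.

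Complex IV passes electrons to oxygen around a core that mitochondrial DNA encodes. Its 15 nuclear genes had a median log2 fold change of -0.08, 9 were negative, and none passed or reached an unadjusted p under 0.05. With the length trend removed the median was 0.07, and 0.06 when control 4 was left out as well. Cox6c measured 144, 187, 164 and 205 CPM in the knockout group, and 250, 362, 257 and 115 CPM in the controls. Control 1 to 3 were all above the knockout range and control 4 was below it, with a log2 fold change of -0.49 with an SE of 0.25 (adjusted p = 0.274). Cox7b, a small X-linked subunit, measured 82.6, 98.5, 88.2 and 118 CPM against 123, 179, 126 and 70.9 CPM, in the same arrangement, with a log2 fold change of -0.36 (SE 0.21). Ndufa4, added to complex IV by structure, repeated it at 193, 287, 241 and 289 CPM against 333, 522, 383 and 176 CPM, with a log2 fold change of -0.49 with an SE of 0.25 (adjusted p = 0.276). At the other end Cox5b, which binds zinc, gave 0.18 (SE 0.08, adjusted p = 0.237) and Cox6b1, which joins the monomers of the dimer, 0.23 (SE 0.12, adjusted p = 0.300). Cox4i1, the largest nuclear subunit, gave 0.04 (SE 0.13). Cox7a2l, which helps to join complexes III and IV into supercomplexes, gave -0.25 (SE 0.16).

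Complex V makes ATP in its F1 head, driven by a ring of c subunits in the membrane. The 5 genes of the head and central stalk all had positive log2 fold changes, with a median of 0.25, as did the 3 c-ring genes, with a median of 0.22. The 5 supernumerary membrane subunits had a median of -0.18 and 4 were negative, and the 4 peripheral stalk genes had a median of 0.02. With the length trend removed the medians were 0.27 for the head, 0.31 for the c-ring, -0.05 for the membrane subunits and 0.09 for the peripheral stalk. None of the 17 passed. Atp5b measured 850, 960, 1093 and 915 CPM in knockout 1 to 4 and 752, 758, 692 and 873 CPM in control 1 to 4. Its log2 fold change was 0.31 (SE 0.11, adjusted p = 0.126), and the groups overlapped through control 4 and knockout 1. Atp5a1, the alpha subunit, measured 536, 556, 636 and 538 CPM against 442, 434, 388 and 540 CPM, a log2 fold change of 0.33 with an SE of 0.11 (adjusted p = 0.122), again with control 4 inside the knockout range. Atp5md, a small membrane subunit of the ATP synthase dimer, had the lowest log2 fold change of the 85 genes, -0.56 (SE 0.26, adjusted p = 0.229). It measured 55.7, 72.2, 69.3 and 85.2 CPM in the knockout group, and 113, 151, 108 and 46.6 CPM in the controls.

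**Figure D2:**
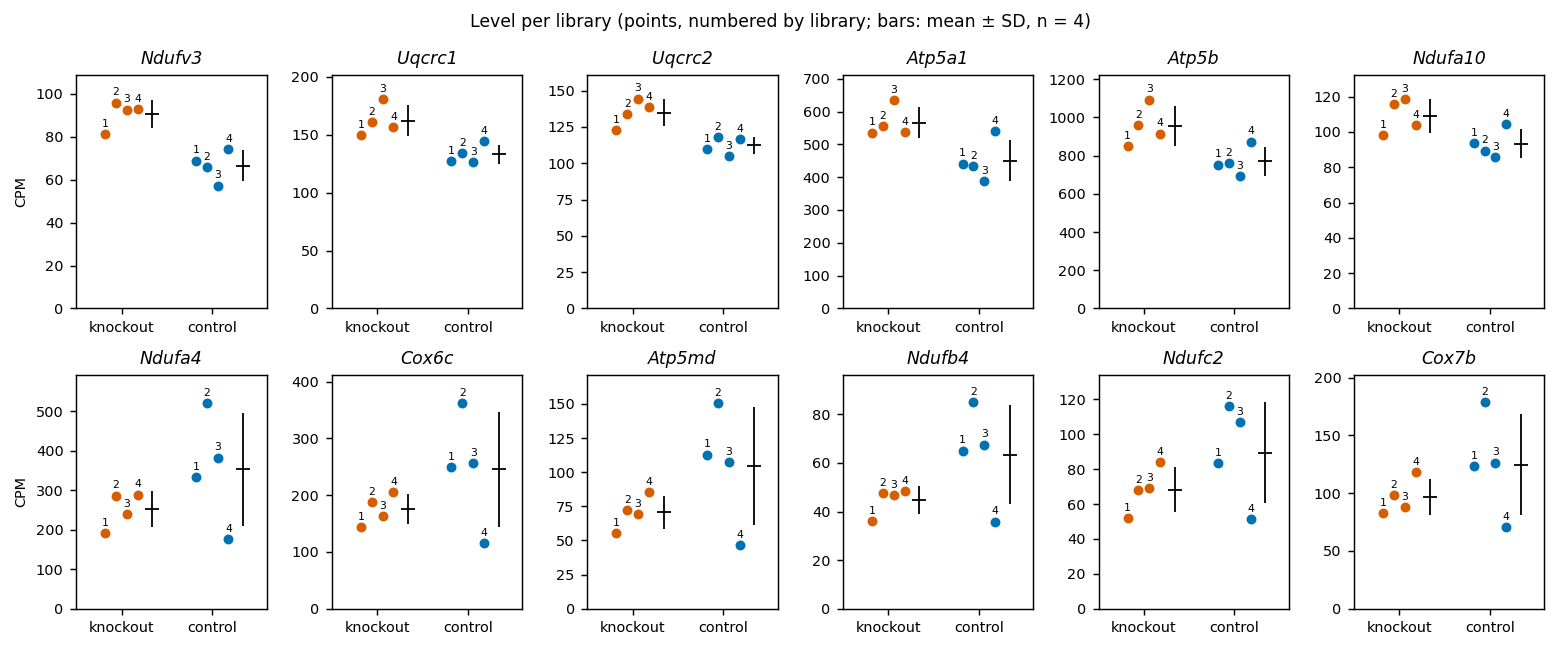
Level in CPM per library for 12 subunit genes, with points numbered by library and bars for the mean and SD of each group. In the upper row the knockout libraries lie above control 1 to 3, as for Ndufv3 at 81.3 to 95.8 against 57.2 to 68.8 CPM. In the lower row control 4 is the lowest library of all, as for Cox6c at 115 CPM. The 12 genes passed in the same direction without control 4, both with and without the length trend removed. A separation of control 1 to 3 from the knockout was therefore favoured by that choice.

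The arrangement seen in Cox6c, Ndufb4 and Atp5md, with control 2 on top and control 4 at the bottom, ran through the short subunit genes. Of the 50 members with a gene length under 1000 bases, control 4 was the lowest library for 34, or 68%, and control 2 the highest for 36, or 72%. Over the 35 longer members the shares were 45.7% and 45.7%, against 12.9% and 14.3% of the 15829 other tested genes of 1000 bases or more. The shares were 39.6% and 40.4% over the 947 other tested genes under 1000 bases, and 14.7% and 16.0% over all genes tested. The arrangement was thus also common among short genes outside the complexes, and among members it was not limited to short ones. The median log2 CPM of the short members, relative to each gene's mean, was -0.29, 0.07, 0.05 and 0.11 in knockout 1 to 4 and 0.02, 0.40, 0.11 and -0.40 in control 1 to 4, so that the control libraries spanned the knockout libraries on both sides. The median coefficient of variation of a member was 10.1% in the knockout and 17.2% in the control libraries. Control 1 to 3 were all above every knockout library for 12 of the short members (24%) and 1 of the longer ones (2.86%), against 18.3% of the other short genes and 13.6% of all genes tested. They were all below for 0 of the short and 8 of the longer members, and for 2696 of the 16861 genes tested.

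**Figure D3:**
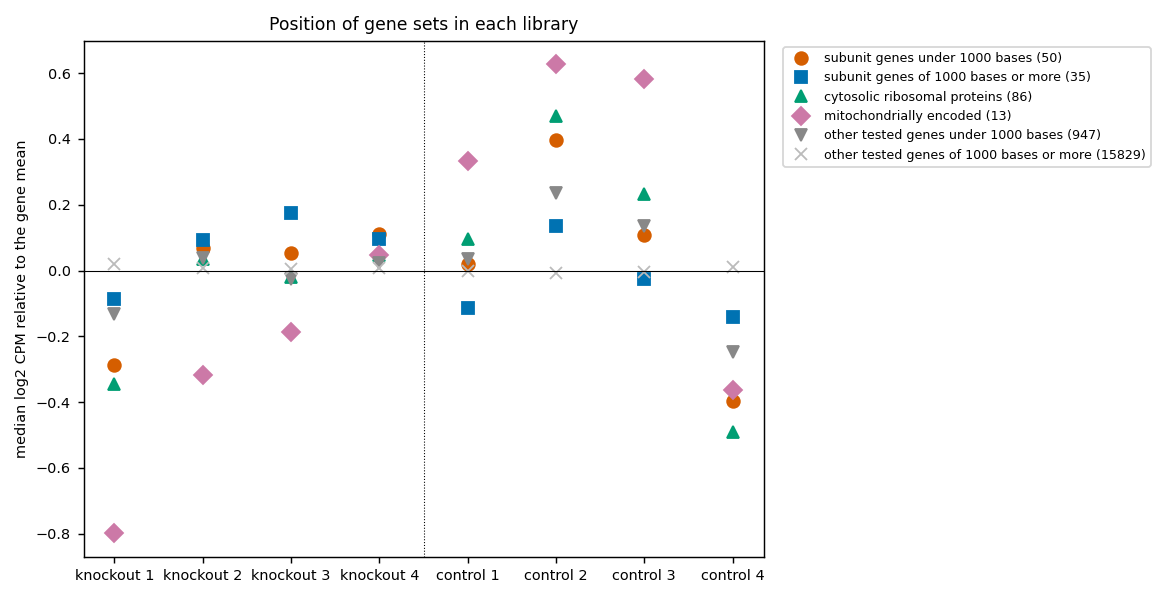
Median log2 CPM of gene sets relative to each gene's mean, for the 8 libraries. Short subunit genes reach 0.40 in control 2 and -0.40 in control 4, cytosolic ribosomal protein genes follow them at 0.47 and -0.49, and other tested genes of 1000 bases or more stay within 0.02 of 0 in every library.

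The direction of the fold change also went with gene length. The 50 short members had a median log2 fold change of -0.06, with 28 negative, and the 35 longer ones 0.13, with 9 negative. The sign for the short members depended on the libraries. Their median was 0.09 without control 2 (longer members 0.17), 0.14 without the 3 libraries rich in lens markers (0.17) and 0.08 with the lens sum as a covariate (0.20). Across the 85 members the rank correlation of length with log2 fold change was 0.44, against -0.05 across the 16776 other genes tested. These values are across genes that share 8 libraries and are given as a description. Beside all genes of their length, the members lay as follows. In genes under 500 bases the median was -0.16 over 17 members and -0.21 over all 150 genes, and between 1000 and 2000 bases it was 0.13 over 26 members and 0.01 over all 2680. With each library's trend over gene length removed, the median of the members became 0.09, with 26 negative, the short and longer members lay at 0.09 and 0.13, the rank correlation became 0.01, and Ndufv3 was again the only call, where 3.21% of all genes passed, 1.48% higher and 1.73% lower.

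**Figure D4:**
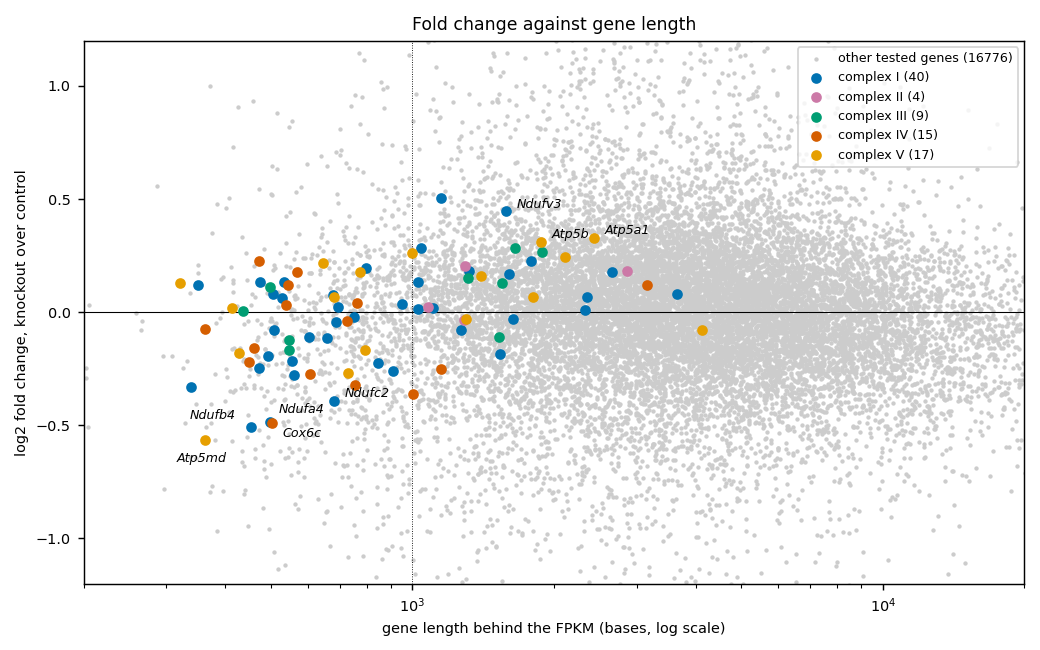
Log2 fold change, knockout over control, against gene length on a log axis, with the 85 subunit genes coloured by complex and the 16776 other tested genes in grey. The vertical line at 1000 bases divides the short members, with a median of -0.06, from the longer ones, with a median of 0.13, and genes outside the axis limits are not drawn.

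Leaving out control 4 changed the count of calls more than any other single library. Then 21 of the 85 members passed, 7 higher and 14 lower. Of all genes 18.7% passed, 10.5% higher and 8.18% lower, so that the higher count is near the background and the lower count above it. The higher ones were Ndufv3 (0.50), Atp5a1 (0.43), Atp5b (0.38), Uqcrc1 (0.33), Ndufa10 (0.28), Uqcrc2 (0.28) and Sdha (0.26), with log2 fold changes in brackets. The lower ones were in complex I Ndufa4 (-0.71), Ndufb4 (-0.70), Ndufc2 (-0.58), Ndufb1 (-0.50), Ndufa6 (-0.46), Ndufb11 (-0.44) and Ndufb2 (-0.38), in complex IV Cox6c (-0.72), Cox7b (-0.56), Cox7a2 (-0.54), Cox7a2l (-0.39) and Cox7c (-0.38), and in complex V Atp5md (-0.81) and Atp5mpl (-0.46). The median of complex IV became -0.32 and that of all members -0.06. When the length trend was removed as well, an alternative chosen after seeing the data, 28 members passed, 22 higher and 6 lower. Of all genes 20.5% passed, 11.2% higher and 9.27% lower, so that here the higher count lay above the background and the lower count did not. The members share the same libraries, and these counts are given as a description. The 2 settings shared 12 calls in the same direction, 57.1% of the 21 and 42.9% of the 28. The shared lower genes were Atp5md, Cox6c, Cox7b, Ndufa4, Ndufb4 and Ndufc2, and the shared higher genes Atp5a1, Atp5b, Ndufa10, Ndufv3, Uqcrc1 and Uqcrc2, which are the 12 genes in the plot of CPM by library.

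Several other measures varied between the libraries, and their part in the position of the short subunit genes was not tested. The 86 tested genes of cytosolic ribosomal proteins were lowest in control 4 for 75 and highest in control 2 for 76, with 74 negative log2 fold changes, a median of -0.19 and none past the test. Transcripts of mitochondrial DNA took 3.27%, 4.10%, 4.24% and 5.07% of counts in knockout 1 to 4 and 6.03%, 7.00%, 6.25% and 3.57% in control 1 to 4, with control 4 again at the level of the knockout. Unlike most short subunit genes, 10 of the 13 mitochondrial genes were lowest in knockout 1 and 1 in control 4. All 13 mitochondrial genes had negative log2 fold changes, with a median of -0.67, and 2 passed. ND3, a complex I core subunit, fell by 3.14 (SE 0.25, adjusted p = 3.51e-05) and ATP6, the proton channel subunit of complex V, fell by 1.51 (SE 0.34, adjusted p = 0.0381), both on the log2 scale. Levels of ND3 were 5.51, 2.52, 3.36 and 3.80 CPM in the knockout group, and 32.4, 34.4, 45.6 and 21.4 CPM in the controls.

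Some subunits have isoform genes made in particular tissues or states, and their shares are given as values. The 70 arrangements of the libraries allow no p under 0.0286, so after adjustment over 11 ratios no single share could pass. Cox4i2, the isoform linked to low oxygen, lay at 9.64 ± 1.23% of the FPKM of Cox4i1 in the knockout and 10.2 ± 0.63% in the control libraries. Ndufa4l2, induced by low oxygen in other tissues, lay at 0.268 ± 0.160% of Ndufa4 against 0.154 ± 0.098%, on 0.629 to 2.66 CPM. Cox6b2, known from testis, lay at 3.80 ± 0.92% of Cox6b1 against 5.40 ± 1.23%, which gave the smallest of the p-values (exact permutation test, two-sided, p = 0.114, adjusted p = 0.786). Of the isoforms known from heart and muscle, Cox7a1 lay at 3.11 ± 0.64% of Cox7a2 against 2.95 ± 1.01%, and Cox8b at 1.13 ± 0.086% of Cox8a against 1.26 ± 0.61%, while 9 markers of muscle summed to 3.91 to 6.10 CPM in the knockout and 3.73 to 4.88 CPM in the control libraries. The c-ring genes Atp5g1, Atp5g2 and Atp5g3, which encode the same mature protein, made up 17.8%, 40.0% and 42.2% of their summed FPKM in the knockout libraries against 17.1%, 39.5% and 43.4% in the controls. Ndufb4b and Ndufs6b, near copies of Ndufb4 and Ndufs6, lay at 1.79% and 5.33% of them in the knockout against 1.53% and 5.34% in control libraries, and the counting could have split reads between copies, so these levels are uncertain.

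**Figure D5:**
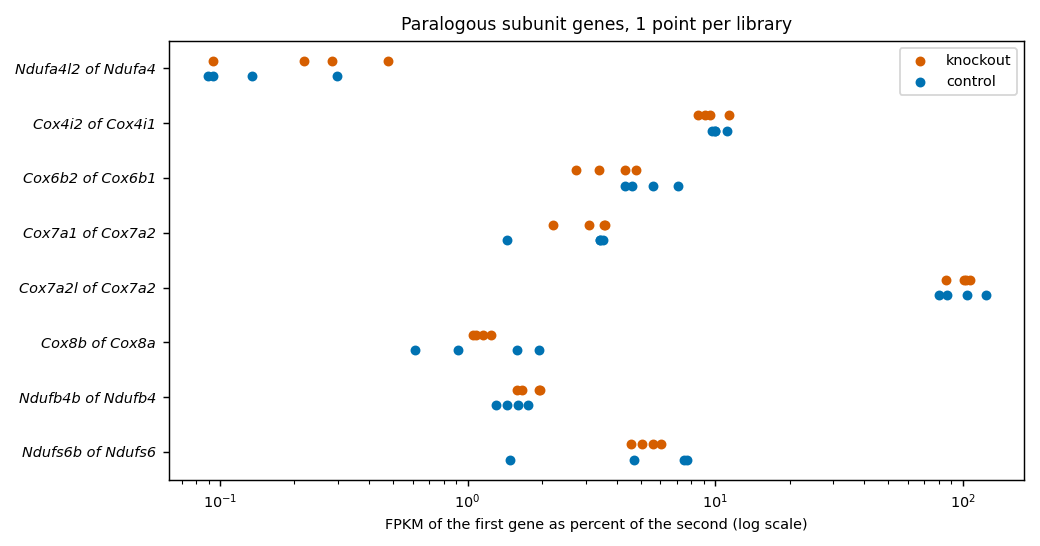
FPKM of the first gene of each pair as a percentage of the second, 1 point per library, on a log axis. Knockout and control libraries overlap in each of the 8 pairs, from Ndufa4l2 at 0.089 to 0.477% of Ndufa4 to Cox7a2l at 80.1 to 124% of Cox7a2.

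The genes that build, feed and regulate the complexes showed few calls as well. Of the 48 assembly factors tested, 16 for complex I, 4 for II, 6 for III, 19 for IV and 3 for V, none passed, with medians of -0.16, -0.21, 0.02, -0.07 and 0.11. The 15 genes of electron carriers covered ubiquinone synthesis, cytochrome c, the electron transfer flavoprotein with its dehydrogenase, and Ndufab1, and 1 passed. Coq5, a methyltransferase of ubiquinone synthesis, was higher by 0.41 in log2 terms (SE 0.09, adjusted p = 0.0403). Coq5 measured 32.2, 34.2, 34.1 and 31.1 CPM in the knockout group, and 23.0, 26.0, 22.7 and 27.0 CPM in the controls, with no overlap. None of the 18 genes of the citric acid cycle passed, although 15 had positive log2 fold changes, with a median of 0.08. Mdh2, mitochondrial malate dehydrogenase, gave 0.35 (SE 0.10, adjusted p = 0.0771) and Idh3g, a subunit of isocitrate dehydrogenase, 0.27 (SE 0.09), each with groups that did not overlap. The 15 regulators of mitochondrial biogenesis, with 13 negative and a median of -0.09, the 14 genes of the outer membrane and protein import, with a median of 0.10, and the 78 mitochondrial ribosomal proteins, with a median of 0.04, held no call.

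Markers of some cell types differed between the groups. Microglia markers passed as higher for 4 of 7 genes, with summed levels of 88.9 to 114 CPM in the knockout and 45.3 to 68.2 CPM in the control libraries. Markers of red blood cells passed as lower for all 4 genes tested of 5, with sums of 1.68 to 4.03 against 10.1 to 14.5 CPM. Markers of the pigment epithelium, whose cells hold many mitochondria, passed as higher for 1 of 5 (Rgr), with sums of 119 to 268 against 62.2 to 141 CPM. Of the cone markers 1 of 7 passed as lower (Arr3, cone arrestin), with sums of 1073 to 1293 against 1255 to 1451 CPM. Their log2 fold changes were negative for 5 and positive for 2. Of the ganglion cell markers 1 of 6 passed as lower (Nefl), with overlapping sums of 598 to 678 against 654 to 849 CPM. Here 3 log2 fold changes were positive and 3 negative, with a median of 0.00. Of the Mueller glia markers 1 of 7 passed as higher (Vim), with sums of 3419 to 4770 against 3314 to 4168 CPM. No marker list had a gene at 0 in all libraries. The part of these cells in the levels of the subunit genes was not tested. The 3 X-linked members did not pass, with log2 fold changes of -0.19 for Ndufa1, -0.26 for Ndufb11 and -0.36 for Cox7b. Of 5 sex-linked genes listed, 2 were tested: Kdm5d passed as higher in the knockout and Xist did not pass. Kdm5d, a gene of the Y chromosome, lay at 27.2, 13.1, 16.1 and 25.0 CPM in knockout 1 to 4 and at no more than 0.126 CPM in any control library. Eif2s3y, also of the Y chromosome, was at no more than 0.188 CPM in all 8 libraries, and Xist, made from the inactive X chromosome, lay at 2730 to 3460 CPM in knockout and 3213 to 5149 CPM in control libraries. The part of these transcripts in the X-linked members was not tested.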

How the data were processed

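Reads per gene were deposited by the authors as whole, unnormalized counts for 25477 genes, and as FPKM, which divide each deposited count by the library total and a fixed length per gene (largest deviation 8.9e-14%). The submitters' processing notes name fastp, HISAT2, HTSeq and the build mm10. For versions, annotation and strand setting the sources used here give nothing, so a gene and an overlapping or antisense partner cannot be told apart. Counts were tested with edgeR 4.0.16 (R 4.3.3): TMM scaling, filterByExpr (minimum count 10, minimum total 15), which kept 16861 genes, a quasi-likelihood fit of genotype over all 8 libraries, two-sided p-values adjusted by Benjamini and Hochberg, threshold 0.05. A positive log2 fold change means higher in the knockout, and its standard error (SE) is its size divided by the square root of F. One count is worth 0.028 to 0.0314 CPM, and counting error alone limits levels near that.

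On simulated data of 16662 genes, this test recovered 81% of genes changed by 1 and 94.9% of those changed by 2 on the log2 scale. Of the genes called there, 7.41% had not been changed. That simulation held no library set apart from its group and no trend over gene length. Smaller changes were not simulated. The title numbers were checked by correlation, which did not show that they pair the libraries and cannot exclude it. Alternatives were other scalings and filters, DESeq2 1.42.0, limma 3.58.1 (voom, with and without quality weights, and log2(FPKM + 1) or log2(FPKM + 0.1)), leaving out single libraries, a block by title number, corrections for length and GC content, and lens markers as a reason to leave out libraries or as a covariate. Promoters and positions come from RefSeq tables for GRCm38.p6, with 69 of 85 promoters and 24629 of 25477 genes matched.

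The members and gene lists were chosen with earlier results of these data known, and the grouping of members by role was made after their values were seen. Genes named by rule were those past the threshold, in each complex the most abundant and the pair with the smallest p, isoform sets, X-linked members and listed genes past the threshold. Other members, Mdh2 and Idh3g were chosen after their values were seen. Some genes are not reported here by name.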

Additional observations from a re-analysis of the deposited data

Results flagged for a closer look

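Within groups of 4 libraries, 15 of the 182 group checks over the 85 members and the summed levels held 1 library far from the other 3. Independent normal values would give about 1 in 20. These genes and sums share the same libraries, so the checks are not independent and the 2 rates cannot be compared. Knockout 1 was the lowest knockout library in 9 of the 15. For 8 genes its level in CPM, with the range of the other knockout libraries after it, was 199 (265 to 275) for Cox4i1, 115 (138 to 139) for Atp5h, 70.7 (89.4 to 91.6) for Uqcrq, 41.4 (50.4 to 51.2) for Ndufs8, 39.7 (52.7 to 55.1) for Atp5e, 36.1 (46.7 to 48.3) for Ndufb4, 28.3 (37.0 to 38.0) for Ndufc1 and 27.0 (34.5 to 34.8) for Ndufb2. The summed FPKM of complex V was 2313 in knockout 1 against 2662 to 2729. Knockout 3 was high for Ndufa11, at 44.5 CPM against 36.8 to 38.0 CPM. Control 2 was high for Atp5o, at 96.0 CPM against 86.5 to 87.7 CPM, and for Ndufa8, at 42.1 CPM against 37.8 to 38.5 CPM. Cox6b2 was low in control 4, at 4.17 CPM against 5.75 to 5.80 CPM. Ndufs6b was low in control 3, at 0.462 CPM against 1.95 to 1.98 CPM, and Ndufa4l2 in control 1, at 0.689 CPM against 1.13 to 1.21 CPM, levels that rest on few reads.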

How the results depend on the processing

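The calls changed with single libraries and with the model. Of all genes, 430 passed in the main analysis. The count was 690 with no filter on low counts, 1320 with DESeq2, 2731 with limma-voom and quality weights, 228 on log2(FPKM + 1), 262 with the GC and length correction, 15 without the libraries rich in lens markers, 270 with the lens sum as covariate, and 3450 with the length correction without control 4. Leaving out 1 library gave 108 to 3209. Members that passed as higher, 1 in the main analysis, were 2 with DESeq2, 6 with quality weights and 22 with the length correction without control 4, and 0 with the GC and length correction, without the lens-rich libraries and with the lens covariate. Leaving out 1 library gave 0 to 7. Members that passed as lower, 0 in the main analysis, were 3 with quality weights, 6 with the length correction without control 4, and 0 to 14 when 1 library was left out. The median of complex IV ran from -0.32 (without control 4) to 0.025 (without control 2) when 1 library was left out. Higher genes were 47.2% of all calls, 61.2% with scaling by library size only, 65.8% on log2(FPKM + 1), 64.5% on log2(FPKM + 0.1) and 59.2% with the GC and length correction. With the title number as a replicate block 228 genes and 0 members passed, and Ndufv3 had an adjusted p of 0.0592, or 0.0557 with the length correction, where again 0 members passed. Same-numbered libraries correlated at 0.213, -0.041, 0.121 and 0.006, and not every library correlated best with its own number. The cause of these changes was not tested. For the 29 members named by rule, no direction differed from the main analysis where either value passed. Where neither passed, a change of sign was not counted as a reversal. Of the 85 log2 fold changes, 37 were negative in the main analysis, 48 without control 4 and 7 without the lens-rich libraries. An alternative without Atp5s-like names was not run, since the table holds no such member. Differences under 1 on the log2 scale lie below the sizes simulated.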
